A study of Sicyos edulis with 9 samples.

Results

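The late step of storage of chayote fruit, from 15 days (S2) to 30 days (S3), was examined in 6 of the 9 libraries of the series, 3 per stage. All fruits were wild type chayote (Sicyos edulis) with no treatment other than storage in the labels, and the libraries were made from total RNA of fruit. The 3 libraries of a stage are biological replicates by the study's methods, and how many fruits went into each is not given. The other 3 libraries, of fruits at the optimal harvest stage (S1), did not enter the comparison and are used only to say what a transcript's level was before storage. The files give FPKM (fragments per kilobase of transcript, scaled to the size of the library) for 57814 unigenes, which are assembled transcripts with Trinity identifiers. Of these, 25739 had at least 1 FPKM in at least 3 of the 6 libraries and were compared, as S3 minus S2, on log2(FPKM + 1).

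Chayote is a cucurbit vegetable whose fruit holds a single seed that can germinate inside it. Its flesh contains flavonoids, which plants make from phenylalanine. Phenylalanine ammonia-lyase (PAL), cinnamate 4-hydroxylase (C4H) and 4-coumarate:CoA ligase (4CL) make an activated phenolic acid, chalcone synthase (CHS) builds the flavonoid skeleton from it, enzymes such as flavanone 3-hydroxylase (F3H), flavonol synthase (FLS) and flavone synthase I (FNSI) modify the skeleton, and UDP-glycosyltransferases (UGT) attach sugars. MYB and bHLH proteins are the best known regulators of these genes in plants, and WRKY, bZIP and Dof proteins are further families of plant transcription factors. Gene names exist here only for the unigenes in the study's own lists of these 15 families, so the fruit tissue could not be checked against markers of its cell types.

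The sequences given for named genes are the study's own qRT-PCR primers. They are shown for 4 of the pathway genes that fell and for a bHLH gene with close replicates. Primers were matched to unigenes by the study's locus names, since no unigene sequence was at hand. All are written 5′ to 3′, and no PCR value is used here.
SeFLS1 forward: gatttcaggaacccagatca
SeFLS1 reverse: gagctcgaagaactccttac
SeF3H forward: gatggacttggcctctaaat
SeF3H reverse: cgagatctgagttggaacat
SeIFR2 forward: ccactcgatgtttattaagg
SeIFR2 reverse: cagtggtgtatttaacttcc
SeFNSI1 forward: gcagacccactccagtttag
SeFNSI1 reverse: caccatccttaagcccatactc
SebHLH1 (FSG0242730) forward: catagcctcagcaagtgata
SebHLH1 (FSG0242730) reverse: ggagttcatcctcccataac

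Most of the transcripts that dominated the fruit at 15 days were lower at 30 days, while about as many of all tested transcripts rose as fell. With limma on log2(FPKM + 1), 14876 of the 25739 unigenes passed a Benjamini-Hochberg adjusted p of 0.05 and were called, which is 57.8% of those tested. Of these, 7547 rose (29.3% of those tested) and 7329 fell (28.5%). The median log2 fold over all tested unigenes was 0.051, and the middle of the distribution ran from -0.649 to 0.677 between its quartiles. The median rise among the calls was 1.02 and the median fall -1.19 on the log2 scale. Fruits hold several tissues, and fewer cells of a type cannot be told apart from less RNA per cell in any of these values.

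Large changes were more often falls than rises. At a log2 fold of at least 1 there were 3871 rises (15.0% of those tested) and 4351 falls (16.9%), and at a log2 fold of at least 3 there were 545 rises and 743 falls. Beyond 5 there were 111 rises and 162 falls, and beyond 8 there were 4 rises and 19 falls. The libraries of the stages did not overlap for 16912 unigenes, 65.7% of those tested, with 8666 higher and 8246 lower in S3. Of the calls, 49 had overlapping libraries. Most calls were not due to transcripts absent from a stage: 17439 unigenes had at least 1 FPKM in all 6 libraries, and 5690 of them rose and 4784 fell. The filter itself lets a unigene in through a single stage, and 1905 tested unigenes were under 1 FPKM in every S3 library and 1434 under 1 FPKM in every S2 library. At the edge of the filter, 5060 unigenes had exactly 3 libraries at 1 FPKM or more, with a median level of 1.32 FPKM over the 6 libraries, and 6756 had 2 such libraries, with a median of 0.79 FPKM, and were left out.

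**Figure D1:**
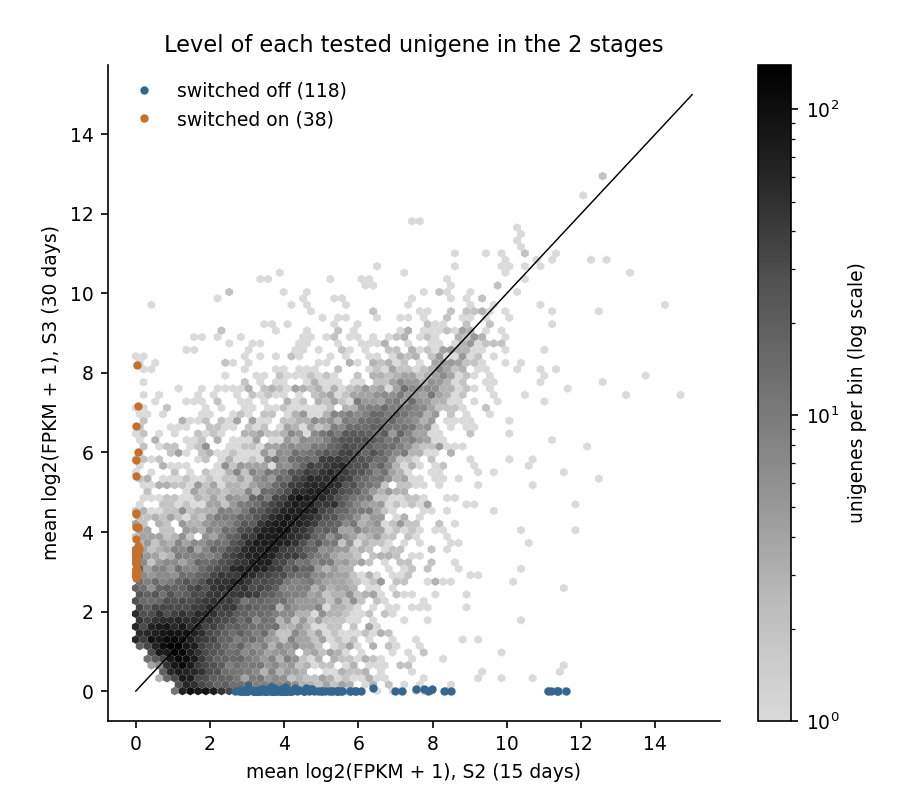
Mean log2(FPKM + 1) of the 25739 tested unigenes in S2 (horizontal axis) and S3 (vertical axis), shaded by unigenes per bin, with the line of equal levels. The blue points along the bottom are the 118 unigenes switched off and the orange points along the left edge the 38 switched on, and the isolated bins at the lower right are abundant S2 transcripts with low levels in S3.

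The S3 libraries varied more among themselves than the S2 libraries. The median SD of a tested unigene between replicates was 0.136 in S2 and 0.234 in S3 on the log2(FPKM + 1) scale. Pearson's r across unigenes was 0.951 to 0.958 within S2, 0.905 to 0.922 within S3 and 0.81 to 0.83 between the stages. Unigenes are not independent replicates, so these r describe the libraries only. The FPKM totals were 902834 to 914583 in the S2 libraries and 801066 to 832808 in the S3 libraries. The deposited values hold no read counts. The size of the steps of 1 read among low values put the depth of S2 replicates 1 and 3 at 1.52 and 1.07 times that of S2 replicate 2. It put that of the S3 libraries at 0.87 to 1.0 times. The study's summary of reads per library was not used for this estimate. That summary names no S3 library and repeats the S2 names in its last rows. Taken as S3, some of those rows have more mapped reads than S2 replicate 2, unlike this estimate. Whether the stages were extracted and sequenced together is not given in the sources used here, so stage and batch cannot be told apart.

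Fewer unigenes had any signal at 30 days. Between 42766 and 44825 unigenes were above 0 FPKM in the S2 libraries and between 40109 and 40304 in the S3 libraries, with no overlap (exact permutation test, two-sided p = 0.1, the smallest that 3 libraries against 3 can give). The deepest library was an S2 library, and the part of depth in this difference was not tested. At a level of at least 1 FPKM the counts overlapped, with 25749 to 26838 in S2 and 26519 to 27217 in S3.

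The concentration of the transcript pool changed most at its top. The 10 most abundant unigenes of each library held 12.6%, 12.1% and 13.3% of the FPKM total in S2 replicates 1, 2 and 3, and 6.49%, 4.99% and 5.27% in the S3 replicates. Their mean share was 12.7% ± 0.597 in S2 and 5.58% ± 0.80 in S3 (SD, n = 3 each), and the groups did not overlap (exact permutation test, two-sided p = 0.1, the smallest possible). The single most abundant unigene held 2.75% to 3.22% of the total in S2 libraries and 0.784% to 1.31% in S3 libraries. Unigenes of 1000 FPKM or more numbered 69 to 72 in S2 and 51 to 58 in S3. It took 721 to 791 unigenes to reach 50% of the FPKM total in S2 and 1238 to 1333 in S3, so the pool was spread over more transcripts at 30 days.

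**Figure D2:**
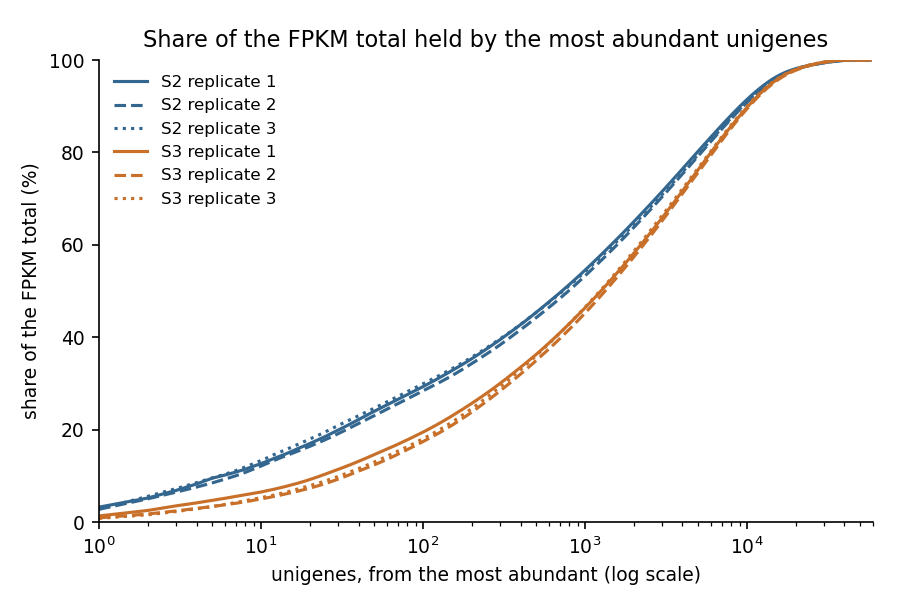
Share of the FPKM total (vertical axis, %) held by the most abundant unigenes, counted from the top (horizontal axis, log scale), in each of the 6 libraries. The 3 S3 curves run under the 3 S2 curves, with 4.99% to 6.49% against 12.1% to 13.3% of the total in the top 10.

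Most of the transcripts that led the pool at 15 days fell. Ranked by their S2 mean, 8 of the top 10, 40 of the top 50 and 72 of the top 100 fell, and 0, 2 and 12 of them rose. This ranking uses the S2 libraries of the comparison, so its counts are a description. The same 100 unigenes held 28.3% to 29.9% of the FPKM total in the S2 libraries and 9.61% to 12.1% in the S3 libraries. Of the 100, 36 were at under 10% of their S2 mean in S3, 19 were at under 1%, and 5 were listed at 0 in all 3 S3 libraries. Ranked instead by the S1 libraries, which the fit did not use, 56 of the top 100 fell and 22 rose. Of all tested unigenes 28.5% fell and 29.3% rose. Of those at 500 FPKM and more by the mean of S2 and S3, 43.4% fell and 33.6% rose. The S1 and S2 lists of the top 100 shared 69 unigenes, so the S1 counts are a description too. The top 500 by S1 gave 261 falls and 88 rises. The S2 and S3 lists of the 100 most abundant unigenes shared 36 unigenes, 36% of each.

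The most abundant unigene of S2, to which the study's lists give no name, measured 29197, 24854 and 25188 FPKM in the S2 replicates and 298, 132 and 114 FPKM in the S3 replicates. It was also the most abundant in S1, with 17228 to 22635 FPKM, and it ranked 654 in S3. Its fall was -7.31 ± 0.39 on the log2 scale (SE, limma adjusted p = 3.1e-05). The second of S2 measured 17855, 20440 and 25584 FPKM in S2 and 532, 400 and 2700 FPKM in S3. It was highest in S3 replicate 3, as were the third (206, 78.8 and 858 FPKM in S3) and the fifth (154, 45.2 and 648 FPKM). All of these S3 values lie far under the S2 values of the same transcripts, which had at least 8212 FPKM. The seventh and the ninth of S2 did not follow, and with 6527 to 10515 FPKM and 6432 to 9504 FPKM they were the first and the second of S3. Neither was called by limma (log2 folds of 0.31 ± 0.37 and 0.25 ± 0.35, SE).

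The unigenes with the largest falls outside the study's lists were lost completely. TRINITY_DN10456_c2_g1 measured 3059, 2842 and 3518 FPKM in the S2 replicates and was listed at 0 in all S3 replicates (limma adjusted p = 1.19e-07). TRINITY_DN32452_c1_g1 measured 3142, 2067 and 3002 FPKM in S2 and was also listed at 0 in all S3 replicates (adjusted p = 5.89e-07). Before storage they had 1404 to 2033 and 2242 to 9733 FPKM in the S1 libraries, so both were abundant at harvest and at 15 days. No fold is given against values listed at 0.

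Transcripts that rose in the late step took part of the top at 30 days. Of the top 100 of S3, 69 rose and 9 fell, and 29 rose by a log2 fold of at least 3, again as a description since the ranking uses S3. TRINITY_DN1112_c1_g3 measured 0.24, 0.62 and 0.38 FPKM in the S2 replicates and 566, 1060 and 1089 FPKM in the S3 replicates, where it ranked 63. In S1 it had 137, 1.74 and 44.7 FPKM, a wide spread between replicates. TRINITY_DN1397_c0_g2 measured 0.14, 0 and 0 FPKM in S2 and 160, 527 and 468 FPKM in S3, and no S1 library had more than 1.32 FPKM. Both rises were called (limma log2 folds of 9.27 ± 0.27 and 8.35 ± 0.44, SE, adjusted p = 4.29e-06 and 3.08e-05), with S3 replicate 1 the lowest of its stage in both. The unigene of rank 10 in S3 had a wider spread, with 219 FPKM in replicate 1 against 2660 and 3995 FPKM in replicates 2 and 3, and 7.71 to 11.9 FPKM in S2.

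The share of unigenes called grew with abundance. Classed by the mean of their S2 and S3 levels, 45.1% of the 9747 unigenes under 5 FPKM were called, 60.4% of 7938 at 5 to 20 FPKM, 69.9% of 6640 at 20 to 100 FPKM, 73.0% of 1262 at 100 to 500 FPKM and 77.0% of 152 at 500 FPKM and more. The spread between replicates did not grow in the same way. The median SD in S3 was 0.33 under 5 FPKM, 0.18 at 20 to 100 FPKM and 0.29 at 500 FPKM and more on the log2(FPKM + 1) scale, and in S2 it was 0.24, 0.09 and 0.12. Transcripts of 500 FPKM and more also had the widest changes, with a median absolute log2 fold of 1.45 against 0.62 at 20 to 100 FPKM.

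The balance of rises and falls within these classes depended on the scaling. At 20 to 100 FPKM 38.7% rose and 31.2% fell, and at 500 FPKM and more 33.6% rose and 43.4% fell. With quantile normalization the shares were nearly level, at 34.2% and 34.2% and at 40.1% and 40.8%. In the top class 36 of 152 unigenes fell by a log2 fold of at least 3 and 17 rose by as much. At 100 to 500 FPKM the order was reversed, with 75 falls and 116 rises of that size among 1262 unigenes. Classed by the S1 mean, the falls grew with abundance more steeply. The S1 libraries did not enter the fit, but they resemble S2 more than S3 does. S1 and S2 shared 69 of their 100 most abundant unigenes, and S2 and S3 shared 36. Classes by S1 therefore lean towards unigenes high in S2, which favours falls, and their shares are a description. Of 10004 unigenes under 5 FPKM at harvest 19.0% fell and 26.9% rose, while of 1275 unigenes at 100 to 500 FPKM 49.6% fell and 22.2% rose, and of 169 at 500 FPKM and more 53.8% fell and 17.8% rose. The median log2 fold was 0.19 in the lowest of these classes and -0.51 in the highest.

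**Figure D3:**
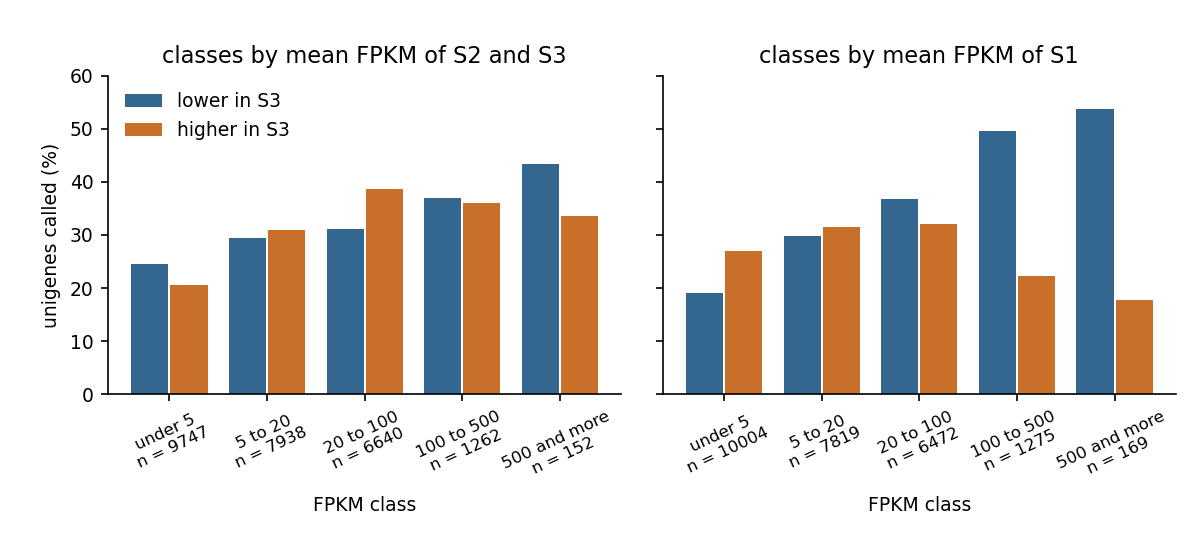
Percentage of unigenes called lower (blue) or higher (orange) in S3 in each FPKM class (limma adjusted p under 0.05), with classes by the mean of S2 and S3 on the left and by the S1 mean on the right, and n the unigenes tested. On the right the share that fell grows from 19.0% to 53.8% across the classes.

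More transcripts were switched off than on in the late step. A unigene counted as switched off when it had at least 5 FPKM in each S2 library and at most 0.1 FPKM in each S3 library, and as switched on in the reverse case. By this rule 118 unigenes were switched off and 38 on, and all of them were also called by limma, which the rule makes nearly certain. Of the 118, 89 were listed at 0 in all S3 libraries, and of the 38, 28 were listed at 0 in all S2 libraries. Leaving out a library can only keep or raise these counts, since the rule asks for every library of both stages. The count of 38 became 60 without S2 replicate 3 and 102, 63 and 72 without S3 replicates 1, 2 and 3. The count of 118 switched off became 138 to 169 with 1 library left out.

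The most abundant transcripts that switched were switched off. The S2 means of the 118 ran from 5.38 to 3140 FPKM with a median of 15.1 FPKM, and 13 had at least 100 FPKM and 5 at least 1000 FPKM. Together they held 1.66% to 2.04% of the FPKM total in the S2 libraries. The S3 means of the 38 ran from 6.22 to 298 FPKM with a median of 10.3 FPKM, and 3 had at least 100 FPKM and 0 at least 1000 FPKM. Together they held 0.13% to 0.14% of the total in the S3 libraries.

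Most transcripts that were switched off had been present at harvest, and most of those switched on had not. Of the 118, 97 had at least 1 FPKM in each S1 library and 65 had at least 5 FPKM. Of the 38, 2 had at least 1 FPKM in each S1 library and 19 were at or under 0.1 FPKM in each. Where an S1 library had a value above 0, for 22 of the 38, the highest was S1 replicate 1 in 17 cases, so harvest levels of this list rest largely on that library. Assembly can split a gene into several unigenes that share a Trinity cluster number. Of the 53 unigenes switched off that had such a neighbour, 15 had a neighbour with at least 5 FPKM in each S3 library, and of the 18 switched on with a neighbour, 13 had one with at least 5 FPKM in each S2 library.

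The study's lists hold 3 of the switched unigenes. The UGT unigene TRINITY_DN1926_c0_g6 measured 0, 0 and 0.02 FPKM in S2 and 103, 89.7 and 112 FPKM in S3, and had 30.0 to 43.1 FPKM in S1. It was thus present at harvest, absent at 15 days and back at 30 days. Its neighbour TRINITY_DN1926_c0_g2, also a UGT and chosen here after its values were seen, moved the other way, from 455, 458 and 509 FPKM in S2 to 90.4, 89.4 and 121 FPKM in S3 (log2 fold of -2.24 ± 0.14, SE, limma adjusted p = 5.55e-05). The other 2 are the bHLH genes FSG0203810 and FSG0181570, with 20.02, 5.68 and 5.15 FPKM and 13.4, 6.31 and 5.81 FPKM in S2, highest in replicate 1, and 0 in all S3 libraries.

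The study's flavonoid enzymes and transcription factors changed in both directions. Of 92 enzyme unigenes 84 were tested, of which 25 rose (29.8%) and 28 fell (33.3%), close to the 29.3% and 28.5% of all tested unigenes. Of 137 transcription factor unigenes 132 were tested, of which 48 rose (36.4%) and 60 fell (45.5%). The study chose these lists on the same samples, and the counts therefore give no independent evidence of direction.

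**Figure D4:**
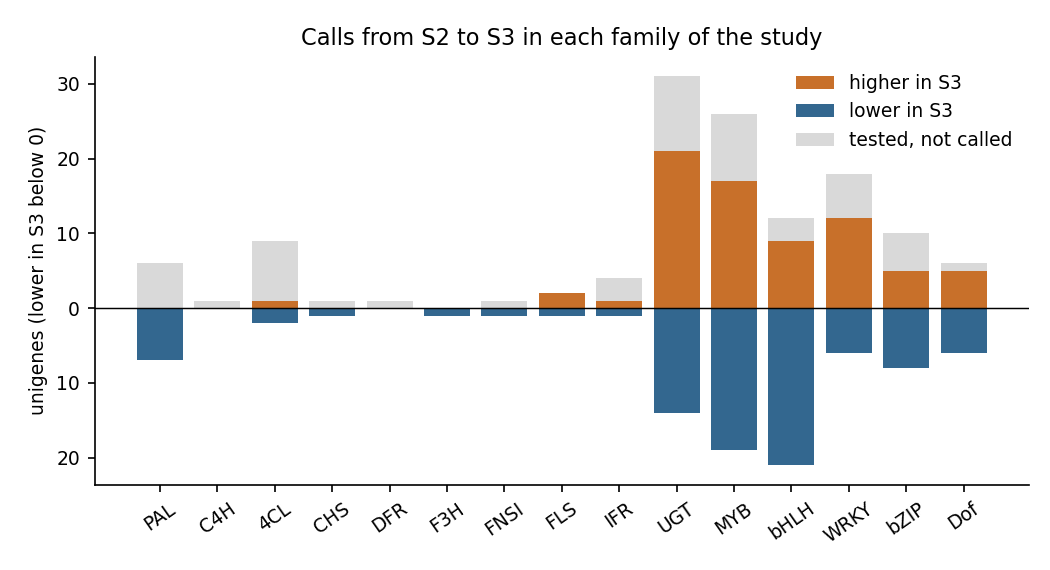
Number of unigenes of each family of the study called higher (orange, above 0) or lower (blue, below 0) in S3, with those tested and not called stacked in grey above 0. bHLH had 21 falls and 9 rises, WRKY 6 falls and 12 rises, and PAL 7 falls and no rise. Over all tested unigenes 28.5% fell and 29.3% rose.

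The entry enzymes of the pathway fell or did not pass the test. Of 13 tested PAL unigenes 7 fell (53.8%) and 0 rose, against 28.5% and 29.3% of all tested unigenes. Their median log2 fold was -1.19, against 0.051 over all tested unigenes. The falls numbered 2 with the filter at 5 FPKM and 4 at an adjusted p under 0.01. Some of the 7 were low, such as TRINITY_DN13591_c0_g1 with 1.38, 1.2 and 1.09 FPKM in S2. PAL converts phenylalanine to cinnamic acid, and its most changed unigene here, TRINITY_DN5659_c0_g1, measured 6.62, 26.6 and 47.8 FPKM in S2 and 2.6, 0.19 and 0.16 FPKM in S3 (log2 fold of -3.67 ± 0.78, SE, adjusted p = 0.00733). TRINITY_DN3127_c2_g2 measured 4.47, 9.13 and 10.3 FPKM in S2 and 0.31, 0.27 and 0.23 FPKM in S3. TRINITY_DN3049_c0_g4 measured 17.8, 25.5 and 14.6 FPKM in S2 and 9.6, 4.37 and 3.44 FPKM in S3. In all 3 genes the stages did not overlap, and S3 replicate 1 was the highest S3 library. By their sum the 15 PAL unigenes gave 88.0, 139.5 and 122.4 FPKM in S2 and 72.4, 26.0 and 22.4 FPKM in S3.

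The next enzymes showed few calls. SeC4H1, the only tested C4H unigene, measured 81.2, 58.1 and 30.2 FPKM in S2 and 37.5, 31.6 and 34.5 FPKM in S3, which overlap (log2 fold of -0.59 ± 0.34, SE, adjusted p = 0.185). Without S2 replicate 3 it was called (-0.98, adjusted p = 0.00821). Of 11 tested 4CL unigenes 1 rose (9.09%) and 2 fell (18.2%), against 29.3% and 28.5% of all tested unigenes. TRINITY_DN16556_c0_g3 rose from 0.42, 1.75 and 2.3 FPKM to 4.79, 8.06 and 9.49 FPKM, and TRINITY_DN25974_c0_g1 fell from 11.2, 9.0 and 10.9 FPKM to 7.01, 4.05 and 4.51 FPKM. TRINITY_DN8538_c0_g1 measured 14.1, 29.9 and 60.4 FPKM in S2 and 15.0, 4.95 and 5.08 FPKM in S3, so its groups overlap. Its call (-1.88, adjusted p = 0.0369) was lost without S2 replicate 2 (0.0941) or 3 (0.101) and without S3 replicate 2 (0.11) or 3 (0.0995).

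The enzymes of the flavonoid skeleton were lower at 30 days where they were called. SeF3H, which hydroxylates flavanones on the way to flavonols, measured 49.9, 47.0 and 48.8 FPKM in S2 and 16.4, 4.5 and 9.23 FPKM in S3 (log2 fold of -2.32 ± 0.39, SE, adjusted p = 0.00292). Its S2 replicates lay within 3 FPKM of each other and its S3 replicates were spread over more than 3 times their lowest value. The CHS unigene TRINITY_DN9531_c1_g2 measured 11.1, 11.9 and 5.95 FPKM in S2 and 2.74, 4.21 and 3.22 FPKM in S3 (-1.24 ± 0.27, adjusted p = 0.0088). The more abundant SeCHS1, with 22.5, 36.1 and 43.8 FPKM in S2, measured 76.8, 8.45 and 2.05 FPKM in S3 and was not called (adjusted p = 0.337). S3 replicate 1 was above every S2 library of SeCHS1, and the other S3 replicates were below. Without S3 replicate 1, SeCHS1 was called lower (-2.66, limma adjusted p = 0.00914). SeDFR, dihydroflavonol reductase, which leads towards anthocyanins and tannins, measured 104, 18.3 and 35.8 FPKM in S2 and 26.5, 26.3 and 20.9 FPKM in S3 and was not called (-0.73 ± 0.58, adjusted p = 0.327).

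The flavonol synthases exchanged places. FLS oxidises dihydroflavonols to flavonols such as quercetin and kaempferol, and all 3 FLS unigenes of the study were called. SeFLS1 measured 169, 189 and 183 FPKM in S2 and 20.9, 17.7 and 16.0 FPKM in S3, or 180 ± 10.2 and 18.2 ± 2.48 FPKM (SD, n = 3). This fall of -3.25 ± 0.11 (SE, limma adjusted p = 7.36e-06) moved it from rank 622 to rank 8366, and it had 315 to 413 FPKM at harvest. SeFLS3 measured 0.04, 0.12 and 0.91 FPKM in S2 and 90.1, 42.6 and 45.6 FPKM in S3 (5.45 ± 0.36, adjusted p = 7.06e-05), with at most 0.53 FPKM in S1. At 30 days it was thus above SeFLS1 in each library. TRINITY_DN28979_c0_g1 rose from 9.23, 7.44 and 7.9 FPKM to 32.7, 32.0 and 17.0 FPKM (1.57 ± 0.26, adjusted p = 0.00269). The summed FPKM of the 3 went from 178.2, 196.2 and 191.6 in S2 to 143.7, 92.3 and 78.5 in S3.

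Branch enzymes also moved in opposite directions. SeFNSI1, a flavone synthase, measured 1.64, 1.73 and 3.56 FPKM in S2 and 0, 0 and 0.03 FPKM in S3 (-1.67 ± 0.26, adjusted p = 0.0021). SeIFR2, an isoflavone reductase-type gene, measured 4.5, 3.64 and 3.54 FPKM in S2 and 0.07, 0 and 0.12 FPKM in S3 (-2.20 ± 0.17, adjusted p = 0.000127). The IFR unigene TRINITY_DN35909_c0_g1 rose from 0.05, 0.12 and 0.25 FPKM to 4.2, 5.76 and 7.05 FPKM (2.53 ± 0.21, adjusted p = 0.000178), and had 9.59 to 23.6 FPKM in S1. SeIFR1, the most abundant of the family at 30 days, was not called, with 106, 49.0 and 48.0 FPKM in S2 and 50.9, 49.3 and 47.4 FPKM in S3. In the study's list of enzymes the values of SeFLS1, SeF3H, SeIFR1, SeIFR2, SeDFR, SeC4H1 and SeCHS1, and of 6 PAL, 3 4CL and 3 UGT unigenes, stand under other stages than in the files, and the stages used here are those of the files.

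Glycosyltransferases rose more often than they fell. Of 45 tested UGT unigenes 21 rose (46.7%) and 14 fell (31.1%), against 29.3% and 28.5% of all tested unigenes. Their median log2 fold was 0.51. Beside TRINITY_DN1926_c0_g6 (6.66 ± 0.12, SE, adjusted p = 1.27e-06), the largest rise was that of TRINITY_DN6658_c0_g2, from 6.0, 3.7 and 1.64 FPKM to 57.6, 118 and 151 FPKM (4.52 ± 0.47, adjusted p = 0.000411). TRINITY_DN13691_c0_g2 was listed at 0 in all S2 libraries and measured 4.32, 10.4 and 9.98 FPKM in S3. These 3 had 21.8 to 120 FPKM in the S1 libraries, so all were lowest at 15 days. TRINITY_DN13691_c0_g2 was still under its harvest level of 21.8 to 30.8 FPKM at 30 days. The most abundant UGT unigene of S3, TRINITY_DN5924_c0_g1, chosen after its values were seen, rose from 97.7, 93.5 and 85.6 FPKM to 217, 337 and 320 FPKM.

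Among the UGT falls, TRINITY_DN10833_c0_g1 measured 28.3, 50.9 and 61.8 FPKM in S2 and 4.32, 3.83 and 2.32 FPKM in S3 (adjusted p = 0.000291). TRINITY_DN12368_c0_g1 measured 8.47, 29.8 and 54.6 FPKM in S2 and 3.56, 4.93 and 1.83 FPKM in S3, and its adjusted p of 0.0155 became 0.0556 without S2 replicate 2. TRINITY_DN3777_c0_g1 measured 14.9, 28.6 and 38.9 FPKM in S2 and 12.2, 2.11 and 1.63 FPKM in S3. Its adjusted p of 0.0197 became 0.0635 and 0.0713 without S2 replicates 2 and 3 and 0.0658 and 0.055 without S3 replicates 2 and 3. In all 3 the S2 libraries differed among themselves by more than 2 times.

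The bHLH genes were the family with the largest share of falls among those with at least 10 tested members. Of 33 tested, 21 fell (63.6%) and 9 rose (27.3%), against 28.5% and 29.3% of all tested unigenes. Their median log2 fold was -2.07. FSG0227110 (TRINITY_DN1643_c0_g1) measured 94.7, 319 and 385 FPKM in S2 and 1.75, 0.11 and 1.62 FPKM in S3 (-6.83 ± 0.61, SE, adjusted p = 0.000225). FSG0046660 measured 40.0, 180 and 122 FPKM in S2 and 2.32, 2.19 and 1.27 FPKM in S3, and FSG0259820 measured 24.7, 57.1 and 78.3 FPKM in S2 and 0.94, 1.4 and 0.97 FPKM in S3. In these 3 the lowest S2 value was that of replicate 1 and still lay more than 10 times above every S3 value. FSG0242730, the SebHLH1 of the primers and chosen for them, measured 102, 103 and 113 FPKM in S2 and 14.8, 16.1 and 17.2 FPKM in S3 (106 ± 6.24 and 16.0 ± 1.19 FPKM, SD, n = 3, adjusted p = 6.05e-06).

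Among the bHLH genes that rose, FSG0136270 went from 3.73, 3.25 and 2.49 FPKM to 40.2, 33.1 and 22.9 FPKM (2.97 ± 0.23, SE, adjusted p = 0.000122). FSG0166740 went from 2.78, 1.2 and 1.12 FPKM to 9.0, 13.2 and 20.3 FPKM. FSG0074880 measured 43.6, 10.9 and 10.6 FPKM in S2 and 59.5, 85.7 and 152 FPKM in S3, and its adjusted p of 0.0163 became 0.0584 and 0.0591 without S2 replicates 2 and 3. Here S2 replicate 1 was the S2 library nearest to S3.

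WRKY genes, many of which respond to stress and senescence in plants, rose more often than they fell. Of 24 tested, 12 rose and 6 fell, with a median log2 fold of 2.32. Of all tested unigenes 29.3% rose and 28.5% fell, so the WRKY share of rises was higher and that of falls slightly lower. FSG0220320 measured 4.59, 1.09 and 1.23 FPKM in S2 and 39.3, 99.3 and 114 FPKM in S3 (4.71 ± 0.53, SE, adjusted p = 0.00059). FSG0209270 measured 20.9, 1.66 and 0.98 FPKM in S2 and 39.4, 107 and 151 FPKM in S3, and FSG0124210 measured 39.5, 3.99 and 10.2 FPKM in S2 and 195, 248 and 208 FPKM in S3. S2 replicate 1 was the highest of its stage in all 3 and S3 replicate 1 the lowest of its own.

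The largest WRKY fall was that of FSG0247520, from 52.5, 60.9 and 46.1 FPKM to 2.35, 3.87 and 1.54 FPKM (-3.96 ± 0.25, SE, adjusted p = 5.64e-05). FSG0047300 measured 64.4, 14.5 and 22.4 FPKM in S2 and 0.76, 2.43 and 4.46 FPKM in S3, and FSG0065530 measured 42.8, 18.2 and 17.1 FPKM in S2 and 4.1, 5.11 and 4.82 FPKM in S3. The stages did not overlap in any of these genes.

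S2 replicate 1 lay closer to S3 than its fellow libraries for many regulators. Among the 108 called transcription factors it was the S2 library nearest to the S3 mean in 65 (60.2%), against 31.1% of all 14876 called unigenes. The summed FPKM of the bHLH list was 916.1 in S2 replicate 1, 1407 and 1447.6 in the other S2 libraries and 561.1 to 580.1 in S3. That of the WRKY list was 861 in S2 replicate 1, 455.9 and 398.1 in the others and 1007.8 to 1662.9 in S3. Without S2 replicate 1 the bHLH counts were 22 falls and 9 rises and the WRKY counts 6 falls and 13 rises. Its part in single calls was not tested beyond leaving it out.

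MYB genes split almost evenly. Of 45 tested, 17 rose (37.8%) and 19 fell (42.2%), against 29.3% and 28.5% of all tested unigenes. Their median log2 fold was 0.05. FSG0250900 measured 10.5, 2.41 and 7.04 FPKM in S2 and 105, 126 and 113 FPKM in S3 (4.08 ± 0.43, SE, adjusted p = 0.000417), and FSG0135260 measured 5.99, 1.11 and 2.23 FPKM in S2 and 67.5, 63.4 and 55.4 FPKM in S3. FSG0058440 as TRINITY_DN5971_c1_g3 was listed at 0 in all S2 libraries and measured 3.44, 24.5 and 57.5 FPKM in S3. The S3 replicates of the other 2 lay close together and those of this gene did not. Its MYB label rests on its place in the study's list, and its locus name is also that of bZIP unigenes.

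Of the MYB falls, FSG0221650 measured 23.9, 15.4 and 19.4 FPKM in S2 and 0.27, 0.08 and 0.37 FPKM in S3 (-4.04 ± 0.20, SE, adjusted p = 2.34e-05). FSG0019590 measured 40.3, 22.7 and 33.5 FPKM in S2 and 2.65, 0.11 and 0.13 FPKM in S3, and FSG0164070 measured 14.8, 14.0 and 19.0 FPKM in S2 and 0.28, 0 and 0.29 FPKM in S3. Each had at least 4.12 FPKM in every S1 library, so these genes were read at harvest and at 15 days and nearly lost at 30 days.

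Of 18 tested bZIP genes, 5 rose (27.8%) and 8 fell (44.4%), against 29.3% and 28.5% of all tested unigenes. None rose by more than 1.84 on the log2 scale. FSG0035590 (TRINITY_DN11492_c0_g1) was the exception in size, with 17.2, 17.8 and 14.3 FPKM in S2 and 0.08, 0.13 and 0.03 FPKM in S3 (-4.01 ± 0.15, SE, adjusted p = 9.33e-06), and at most 0.99 FPKM in S1. FSG0022040 fell from 17.0, 19.0 and 19.1 FPKM to 2.74, 2.25 and 2.03 FPKM, and FSG0046700 from 12.4, 16.5 and 17.2 FPKM to 3.92, 3.82 and 3.5 FPKM. The largest rise was that of TRINITY_DN649_c2_g1, which carries the same locus name FSG0058440 as the MYB unigene above, from 43.7, 17.8 and 21.99 FPKM to 80.3, 108 and 98.5 FPKM. FSG0239400 rose from 11.4, 9.24 and 8.5 FPKM to 24.5, 30.2 and 31.2 FPKM, and FSG0203780 from 20.8, 14.4 and 12.96 FPKM to 42.6, 42.7 and 42.2 FPKM.

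Of 12 tested Dof genes, 5 rose and 6 fell. Both shares were above those of all tested unigenes, of which 29.3% rose and 28.5% fell. FSG0218970 (TRINITY_DN10329_c0_g2) measured 2.65, 0.21 and 0.21 FPKM in S2 and 105, 154 and 190 FPKM in S3, a rise of 6.39 ± 0.48 (SE, adjusted p = 0.000109) that took it from rank 25824 to rank 848, and it had at most 0.3 FPKM in S1. FSG0100210 rose from 9.1, 4.73 and 3.84 FPKM to 57.5, 45.3 and 39.7 FPKM, and FSG0179110 from 22.7, 6.15 and 7.46 FPKM to 65.6, 56.6 and 65.5 FPKM. S2 replicate 1 was again the S2 library nearest to S3 in all of them.

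In the other direction, FSG0134960 fell from 73.2, 51.3 and 53.0 FPKM to 4.97, 4.06 and 11.4 FPKM and FSG0019450 from 30.2, 30.7 and 28.4 FPKM to 3.54, 3.79 and 2.31 FPKM. FSG0209650 was present at 15 days alone, with 3.08, 7.17 and 8.92 FPKM in S2 and 0 in every S1 and S3 library. Of the Dof genes named, all had S2 and S3 libraries that did not overlap.

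**Figure D5:**
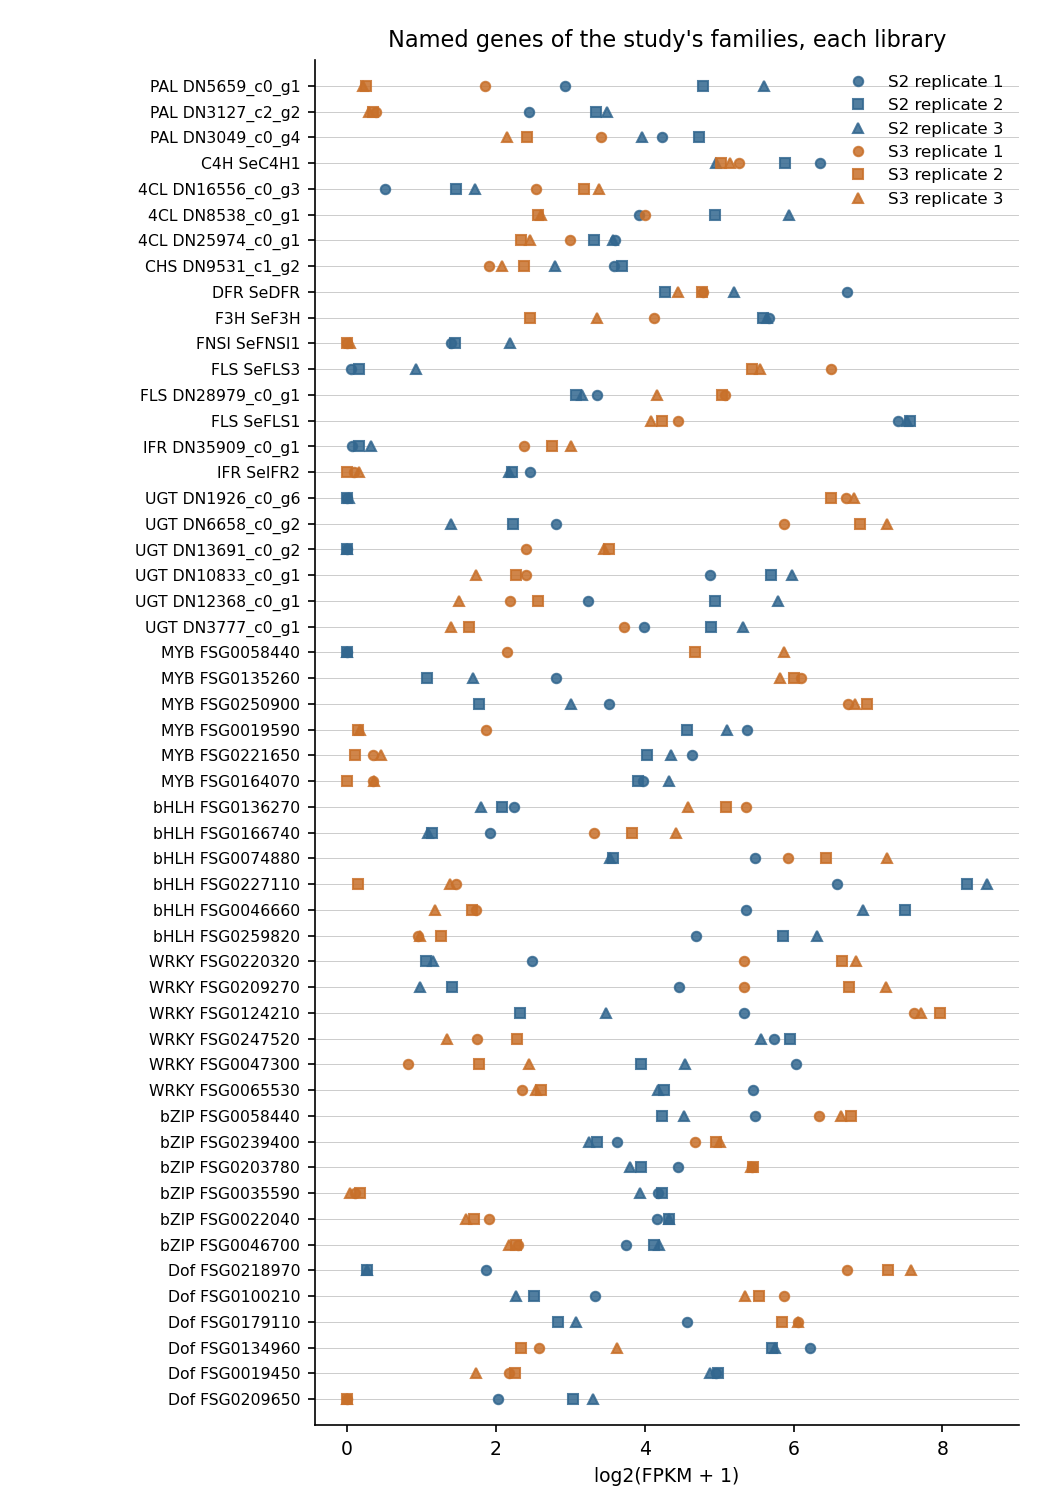
log2(FPKM + 1) of each named gene of the study's families in the 3 S2 (blue) and 3 S3 (orange) libraries, with circles, squares and triangles for replicates 1, 2 and 3. The colours separate in all genes except SeC4H1, SeDFR and the 4CL unigene TRINITY_DN8538_c0_g1.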

How the data were processed

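RNA of fruits was sequenced in 9 libraries, and S3 was compared with S2 in 6 of them. The authors deposited FPKM with 2 decimals. They had filtered the reads with fastp, while the sources used here do not give the assembler, mapper or counting tool. FPKM are relative to each library's reads, so a change in dominant transcripts shifts the values of all others, and no counts allow a counting interval. The 3 libraries per stage were grouped by their labels, and p-values measure the spread between them. limma 3.58.1 in R 4.3.3 (lmFit, eBayes with trend, 6 libraries) was run on log2(FPKM + 1) with Benjamini-Hochberg adjustment at 0.05, and the script was tested on simulated data. A pseudocount of 1 understates the folds of low unigenes. Python 3.11.15 (numpy 2.4.6, scipy 1.17.1, pandas 2.3.3, matplotlib 3.10.9) did the rest.

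Family names come from the study's supplementary lists. Transcription factors outside its named genes were given a family by their order in its list and its count per family. In all, 14 distinct Dof unigenes resulted, fewer than the study's count of Dof factors. Of 95 entries of its enzyme list, which has no identifiers, 91 were matched to a single unigene through their 9 values, 19 of them with stages that differ from the files, 2 had no match and 2 had several. SePAL4 holds the same 9 values as another unigene with S1 and S2 exchanged. The text names, in each family, the 3 called unigenes that rose most and the 3 that fell most, a lone tested member, and outside the lists 2 in each direction whose libraries do not overlap and whose higher stage has a mean of 10 FPKM or more. Members and lists were chosen with earlier results of these data known. Alternatives were median-of-ratios scaling, quantile normalization, filters, pseudocounts of 0.1 and 0.01, other eBayes options, all 9 libraries, a replicate block, leaving out each library, a minimum log2 fold of 1, an adjusted p under 0.01, and other limits for switches, shares and classes.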

Additional observations from a re-analysis of the deposited data

How the results depend on the processing

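The count of calls (14876) lay between 12456 and 15067 when 1 library was left out, with 6093 to 7691 rises and 6227 to 7397 falls, and was 8222 (3871 rises, 4351 falls) when a log2 fold of 1 in either direction was also required. With a library left out, transcription factors gave 41 to 52 rises and 54 to 59 falls and enzymes 24 to 28 rises and 23 to 32 falls. The median log2 fold became -0.008 with median-of-ratios scaling. Replicate numbers do not pair the stages, since same-numbered libraries deviated together with r of -0.06, 0.024 and -0.081, and a replicate block gave 13270 calls, 6686 up and 6584 down. Unigenes switched off and on were 291 and 111 with a low limit of 0.5 FPKM, 612 and 365 with a high limit of 1 FPKM, 60 and 10 with a high limit of 10 FPKM, and 138 to 169 and 46 to 102 with a library left out. The top 50 and top 100 held 23.9% and 29.2% of the total in S2 and 13.3% and 18.3% in S3, and the top 10 held 12.4% to 13% and 5.13% to 5.88% with a library left out. Classed by S1, rises were 22.2% at 100 to 500 FPKM and 17.8% at 500 FPKM and more, with median log2 folds of -0.03, -0.37 and -0.51 at 20 to 100, 100 to 500 and 500 FPKM and more. Of the 56 named genes none changed direction where called, and 51 kept their side of the threshold in every refit that tested them, the exceptions being SeC4H1, the 4CL unigene TRINITY_DN8538_c0_g1, the UGT unigenes TRINITY_DN12368_c0_g1 and TRINITY_DN3777_c0_g1 and the bHLH gene FSG0074880. SeCHS1, which is not among the 56, was called only without S3 replicate 1. The depth of single unigenes is unknown, which limits what a value at 0 can show.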
